A study of Arabidopsis thaliana with 9 samples.

Results

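Seedlings of Arabidopsis thaliana carrying 35S::JAW were compared directly with seedlings carrying 35S::GA20OX, a pair of overexpression genotypes that both belong to a study of routes to larger leaves. The members of the comparison are the arrays that the labels give to these genotypes, 6 of the 9 arrays in the series. The 35S::JAW group had 3 arrays and overexpressed JAW, the locus of the microRNA miR319a. The 35S::GA20OX group had 3 arrays and overexpressed a gibberellin 20-oxidase. The other 3 arrays are of wild type and were kept out of the test. All plants were of the Col-0 accession, were grown in vitro on MS medium in long days and were harvested at growth stage 1.03, when the vegetative part was taken for RNA. The 35S promoter of cauliflower mosaic virus is strong and active in nearly all tissues, not in leaves alone, and the sources used here do not give how many transformed lines stand behind each genotype. Transcripts were measured on Affymetrix ATH1 arrays, which carry sets of short probes, and the deposited values are log2 expression values per locus.

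miR319 directs the cleavage of transcripts of TCP2, TCP3, TCP4, TCP10 and TCP24, transcription factors of the CIN class that restrain cell proliferation at the margins of young leaves and promote leaf maturation. When their transcripts are lost, leaves grow large and crinkled. Gibberellin 20-oxidase catalyses late steps in the synthesis of gibberellins, hormones that promote growth by causing the degradation of DELLA repressor proteins, and excess hormone lowers its own synthesis by feedback. A direct comparison of both lines gives the transcripts in which these routes differ, whichever of the lines departs from wild type.

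Values were given for 20777 loci, and the medians of the 6 arrays lay from 6.35 to 6.41. Across loci, which are not independent replicates, Pearson's r was between 0.9957 and 0.9972 within 35S::JAW, between 0.9968 and 0.9971 within 35S::GA20OX and between 0.9892 and 0.9919 across the lines. The first principal component held 62.1% of the variance and separated the lines. 35S::JAW replicate 2 had the lowest array weight, 0.551. The labelled tissue matched its markers: the photosynthesis genes PSBO1, PORB and GUN4, the 3 measured of 6 shoot markers, had mean log2 values between 11.68 and 14.001 in 35S::JAW and between 11.59 and 13.98 in 35S::GA20OX. The 5 measured root markers did not exceed 5.05 in 35S::JAW and 4.96 in 35S::GA20OX, and floral organ and seed markers were lower still, where the lower quartile of all values was 4.33. None of the 13 root, 11 floral organ and 13 seed storage genes of the longer lists differed between the lines past a limma adjusted p of 0.05, and at an unadjusted p under 0.05 only 1 floral organ gene did.

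GA20OX1 and the miR319 target genes followed the labels on every array. The labels do not name the overexpressed gibberellin 20-oxidase gene, and GA20OX1 is taken for it only because of its values on these arrays. GA20OX1 (AT4G25420) had log2 values of 5.07, 5.45 and 5.11 on the 35S::JAW arrays, against 12.95, 12.94 and 13.01 on the 35S::GA20OX arrays. The groups were far apart, and the difference of -7.75 ± 0.10 (SE), or 216-fold, was the largest of all loci (limma adjusted p = 2.37e-09). A probe set cannot tell a transgene's transcript from that of the resident gene. The other gibberellin 20-oxidase genes did not follow it: GA20OX2, GA20OX3, GA20OX4 and GA20OX5 differed by 0.13, 0.25, 0.01 and 0.19, and none passed the test. The miR319a precursor itself is not reported here.

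TCP2 (AT4G18390), the most strongly reduced miR319 target, had log2 values of 6.22, 6.14 and 6.13 in 35S::JAW, against 9.55, 9.43 and 9.58 in 35S::GA20OX, a difference of -3.36 ± 0.07 (adjusted p = 4.8e-08). TCP3 (AT1G53230) had 5.68, 5.21 and 5.48 in 35S::JAW, against 8.46, 8.59 and 8.55 in 35S::GA20OX. TCP4 (AT3G15030) had 5.52, 5.92 and 5.74 in 35S::JAW, against 8.69, 8.65 and 8.70 in 35S::GA20OX. In all 3 genes the 35S::JAW arrays lay well under the 35S::GA20OX arrays, with no overlap. TCP24 (AT1G30210) had 5.17, 5.15 and 5.36 in 35S::JAW, against 7.66, 7.54 and 7.48 in 35S::GA20OX. TCP10 (AT2G31070) had 6.55, 6.16 and 6.52 in 35S::JAW, against 8.22, 8.28 and 8.19 in 35S::GA20OX, and with -1.82 ± 0.11 it was the least reduced of the 5 targets (adjusted p = 2.27e-05). The differences were -3.08 ± 0.11 for TCP3, -2.95 ± 0.10 for TCP4 and -2.34 ± 0.08 for TCP24. The CIN-class genes without a miR319 site moved the other way: TCP13 (AT3G02150) was higher by 0.63 ± 0.12 (adjusted p = 0.0115) and TCP5 (AT5G60970) by 0.59 ± 0.12 (adjusted p = 0.0132), while TCP17 differed by 0.22 ± 0.08 and did not pass (adjusted p = 0.107). The call of TCP5 was lost without 35S::JAW replicate 1 or 35S::GA20OX replicate 2 (adjusted p up to 0.056).

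**Figure D1:**
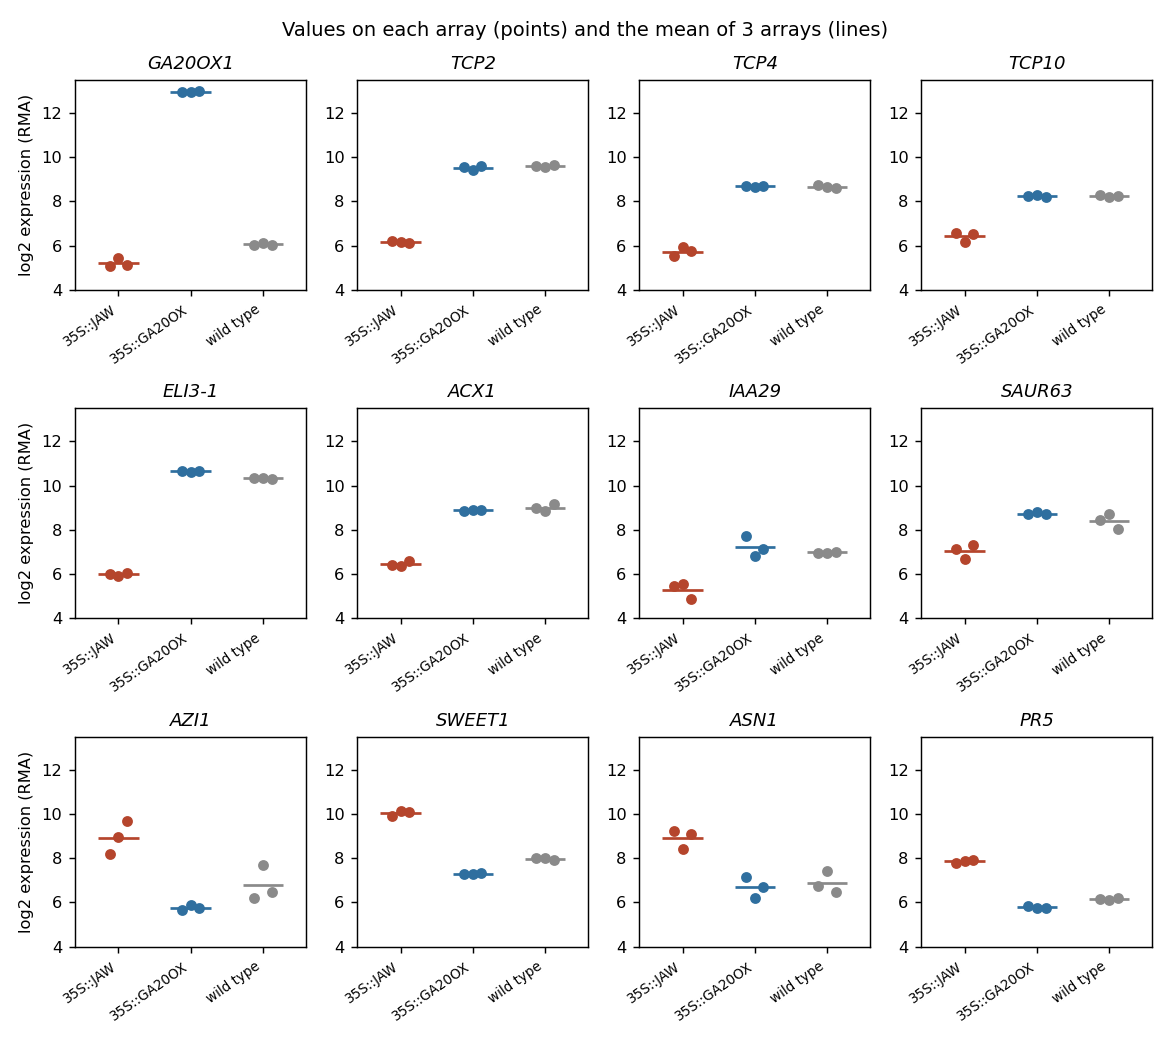
Log2 expression (RMA, vertical axis, the same range in every panel) of 12 genes on each of 3 arrays per genotype, with 35S::JAW at the left, 35S::GA20OX in the middle and wild type at the right; points are arrays and lines their mean. GA20OX1 stands near 13 only in 35S::GA20OX, TCP2, TCP4 and TCP10 are low only in 35S::JAW, and in ELI3-1, ACX1, AZI1, SWEET1, ASN1 and PR5 the 35S::JAW arrays lie outside the range of the 35S::GA20OX arrays.

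Over all loci, 2381 of 20777 differed past a Benjamini-Hochberg adjusted p of 0.05 in limma, 11.5% of those tested. Such loci are said to be called. Of these, 1185 were higher in 35S::JAW (5.7% of all loci) and 1196 were lower (5.76%), and those shares are the background for every count of a gene group given here. The gene groups were chosen with earlier results of these data known, so a share above the background is a description and not a test. At least 2-fold changes were found at 101 called higher loci (0.486%) and 120 called lower loci (0.578%). The median difference of all loci was 0.01 on the log2 scale. The smallest called difference was 0.23 and the median size of a called difference 0.45, with a median SE of 0.08. In every called locus the 3 arrays of one line lay outside the range of the other's, but this held for 30.2% of all loci. The counts fell to 719 higher and 741 lower without 35S::JAW replicate 1, 772 and 866 without 35S::JAW replicate 3, 670 and 796 without 35S::GA20OX replicate 2, and 724 and 779 without 35S::GA20OX replicate 3. Of the called loci, 1176 (570 higher and 606 lower) were called with any 1 of the 6 arrays left out. The samples are bulk tissue, in which fewer cells of a type and less RNA per cell cannot be told apart.

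**Figure D2:**
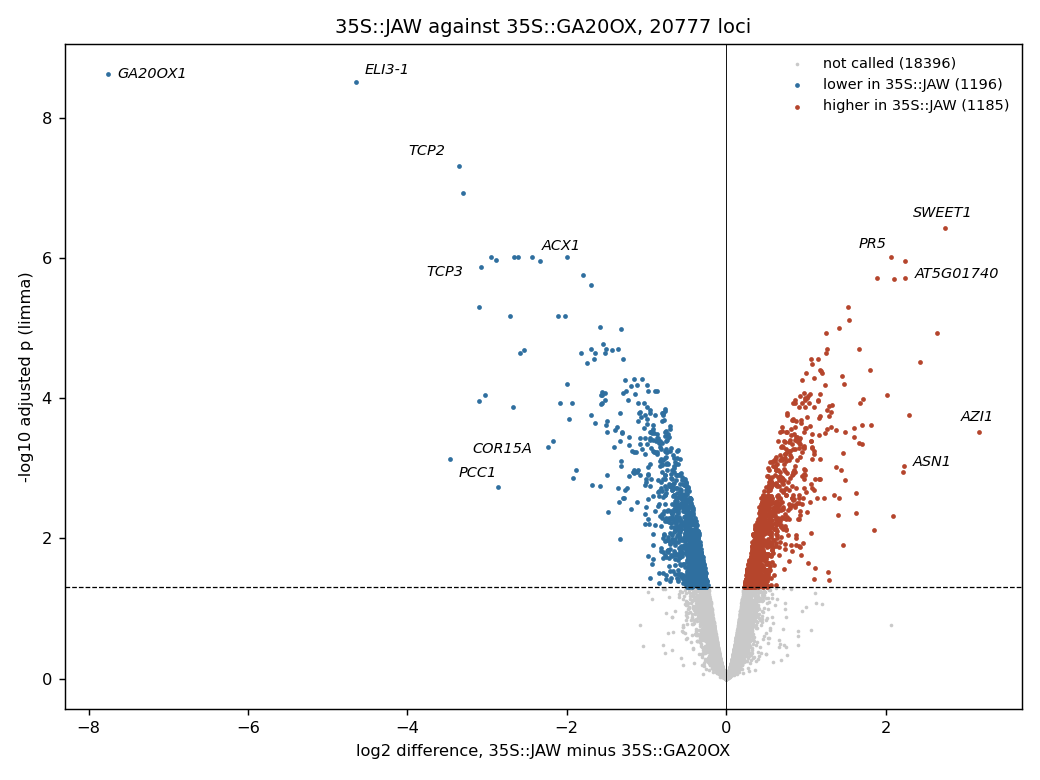
Each point is a locus, with its log2 difference (35S::JAW minus 35S::GA20OX) on the horizontal axis and -log10 of the limma adjusted p on the vertical axis; the dashed line marks an adjusted p of 0.05. The called loci are near balance, 1185 higher and 1196 lower, while the largest differences are decreases: GA20OX1 at -7.75 and ELI3-1 at -4.65, against 3.172 for AZI1.

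In the gibberellin pathway the lines differed in a few genes of synthesis and of signalling. Of 13 synthesis genes other than GA20OX1, 3 were higher in 35S::JAW and none lower, with a median difference of 0.14. GA3OX1 (AT1G15550), the 3-oxidase gene of the last activating step and subject to feedback by the hormone, had log2 values of 7.25, 7.26 and 7.20 in 35S::JAW, against 6.63, 6.44 and 6.63 in 35S::GA20OX, a difference of 0.67 ± 0.08 (adjusted p = 0.000769). GA2 (AT1G79460), the ent-kaurene synthase gene, was higher by 0.70 ± 0.07 (adjusted p = 0.00048), and GA3 (AT5G25900), the ent-kaurene oxidase gene, by 0.49 ± 0.09 (adjusted p = 0.0112). These genes act at early and late steps of the route, and in each the 3 arrays of 35S::JAW lay above those of 35S::GA20OX. Of 9 genes of gibberellin deactivation only GA2OX2 (AT1G30040) was called, lower by 0.58 ± 0.12 (adjusted p = 0.0182). Its call was lost without 35S::JAW replicate 1 or 3, or without 35S::GA20OX replicate 1 or 2 (adjusted p up to 0.073). The wild-type mean was nearer to 35S::GA20OX for 2 of the 3 called synthesis genes and for GA2OX2. Whether feedback by the hormone had a part in these differences was not tested.

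Of 12 genes of gibberellin receptors, DELLA repressors and their partners, 3 were lower in 35S::JAW, and all 3 encode DELLA proteins. RGL1 (AT1G66350) had log2 values of 6.22, 6.23 and 6.11 in 35S::JAW, against 7.23, 7.39 and 7.01 in 35S::GA20OX, a difference of -1.02 ± 0.10 (adjusted p = 0.000367). RGL2 (AT3G03450) differed by -0.93 ± 0.09 (adjusted p = 0.000309). GAI (AT1G14920) had 9.07, 9.10 and 9.09 in 35S::JAW, against 9.78, 9.84 and 9.74 in 35S::GA20OX. The 35S::JAW arrays were nearly equal, and the difference was -0.70 ± 0.06 (adjusted p = 0.000277). The DELLA genes RGA1 (-0.15) and RGL3 (-0.38) and the receptor genes GID1A (0.05), GID1B (0.29) and GID1C (0.08) did not pass. For 2 of the 3 called genes the wild-type mean was nearer to 35S::GA20OX.

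Some genes of jasmonate synthesis, whose enzymes act in sequence, were lower in 35S::JAW. Of 16 measured genes 6 were lower, 1 was higher and 9 did not pass, with a median difference of -0.18 (0.01 over all loci). LOX2 (AT3G45140), the chloroplast lipoxygenase that starts the pathway in leaves and a known target of TCP4, had log2 values of 9.18, 9.17 and 9.28 in 35S::JAW, against 11.16, 11.21 and 11.26 in 35S::GA20OX, a difference of -1.999 ± 0.07 (adjusted p = 9.75e-07). ACX1 (AT4G16760), the peroxisomal acyl-CoA oxidase of the closing beta-oxidation steps, had 6.42, 6.34 and 6.58 in 35S::JAW, against 8.86, 8.89 and 8.88 in 35S::GA20OX, a difference of -2.43 ± 0.08 (adjusted p = 9.69e-07). In both genes the gap between the lines was far wider than the spread of either line's arrays. AOS (AT5G42650), the allene oxide synthase gene of the second step, differed by -0.79 ± 0.07 (adjusted p = 0.000161). JAR1 (AT2G46370), which joins jasmonate to isoleucine to give the active hormone, differed by -0.65 ± 0.08 (adjusted p = 0.00113). The remaining lower members were OPR3 (-0.37) and JMT (-0.27), and LOX6 was higher by 0.41. The count of lower members was 4 or 5 with 1 array left out, and OPR3 and JMT lost their calls in 4 and 6 of the 6 such fits (adjusted p up to 0.116).

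Of 16 jasmonate response genes 4 were lower and none higher, with a median of -0.05. JAZ1 (AT1G19180), a repressor that the hormone itself induces, had log2 values of 4.65, 4.54 and 4.83 in 35S::JAW, against 6.14, 5.74 and 5.60 in 35S::GA20OX, a difference of -1.15 ± 0.14 (adjusted p = 0.00117). The chlorophyllase gene CLH1 (AT1G19670) differed by -0.55 ± 0.08 (adjusted p = 0.00236), the jacalin-related lectin gene JR1 (AT3G16470) by -0.51 ± 0.07 (adjusted p = 0.00162) and CORI3 (AT4G23600) by -0.42 ± 0.10 (adjusted p = 0.0322). The call of CORI3 was lost with any 1 array other than 35S::JAW replicate 2 left out (adjusted p up to 0.11).

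Most auxin genes that passed the test were lower in 35S::JAW, though more than 1 in 2 of the Aux/IAA genes did not pass. Of 26 Aux/IAA genes, which encode short-lived repressors that auxin induces, 12 were lower, none higher and 14 not called, with a median of -0.19. IAA29 (AT4G32280) had log2 values of 5.45, 5.56 and 4.87 in 35S::JAW, against 7.71, 6.80 and 7.12 in 35S::GA20OX, a difference of -1.92 ± 0.24 (adjusted p = 0.00137). IAA1 (AT4G14560) had 5.95, 6.12 and 5.78 in 35S::JAW, against 7.70, 7.51 and 7.60 in 35S::GA20OX, a difference of -1.65 ± 0.10 (adjusted p = 2.27e-05). IAA2 (AT3G23030, -1.15 ± 0.12) and IAA19 (AT3G15540, -1.09 ± 0.09) followed, and IAA6, IAA5, IAA17 and IAA11 were lower by 0.87, 0.67, 0.62 and 0.54. IAA14, IAA34, IAA9 and IAA12 were lower by 0.40, 0.32, 0.30 and 0.26. With 1 array left out, 9 or 10 Aux/IAA genes were called lower, and IAA9, IAA12 and IAA34 each lost the call in 4 or more of the 6 such fits (adjusted p up to 0.139).

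Of 27 other genes of auxin response, transport and synthesis 13 were lower, 2 higher and 12 not called, with a median of -0.33. Most were SAUR genes, whose small proteins promote cell expansion. SAUR63 (AT1G29440) had log2 values of 7.15, 6.67 and 7.30 in 35S::JAW, against 8.72, 8.78 and 8.70 in 35S::GA20OX, a difference of -1.70 ± 0.14 (adjusted p = 0.000174). SAUR23 (AT5G18060) differed by -1.35 ± 0.18 (adjusted p = 0.00188), SAUR65 (AT1G29460) by -1.32 ± 0.15 (adjusted p = 0.000929) and SAUR66 (AT1G29500) by -1.25 ± 0.09 (adjusted p = 7.81e-05). SAUR68, SAUR64, SAUR15 and SAUR14 were also lower, by 0.99, 0.90, 0.61 and 0.38, and SAUR9 was higher by 0.45. SAUR63 to SAUR68 lie together on chromosome 1 and are alike in sequence, and whether their probes are shared was not checked. Lower as well were the auxin-conjugating enzyme genes GH3.6 (-0.84) and GH3.5 (-0.64), the synthesis genes TAA1 (-0.84) and YUC8 (-0.33) and the efflux carrier gene PIN3 (-0.44). The influx carrier gene AUX1 was higher by 0.46. SAUR14 and YUC8 lost their calls in 3 and 5 of the 6 fits with 1 array left out (adjusted p up to 0.077).

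Among 14 genes of the HD-ZIP II class and of light-signalling bHLH proteins, regulators of shade responses, 3 were lower and 2 higher. HAT2 (AT5G47370), which auxin induces, had log2 values of 7.12, 6.98 and 6.79 in 35S::JAW, against 8.74, 8.51 and 8.63 in 35S::GA20OX, a difference of -1.66 ± 0.10 (adjusted p = 2.76e-05). HFR1 (AT1G02340), a bHLH protein of far-red light signalling, had 6.55, 5.98 and 6.31 in 35S::JAW and 7.47, 7.11 and 7.62 in 35S::GA20OX, a difference of -1.12 ± 0.16 (adjusted p = 0.00301). Its wild-type values of 5.95, 5.77 and 5.81 lay under those of both lines. PAR1 (AT2G42870) was higher by 0.78 ± 0.12 (adjusted p = 0.00399). HAT1 (AT4G17460) was higher by 0.47 ± 0.11 (adjusted p = 0.0274), a call lost with any 1 array other than 35S::JAW replicate 2 left out (adjusted p up to 0.098).

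**Figure D3:**
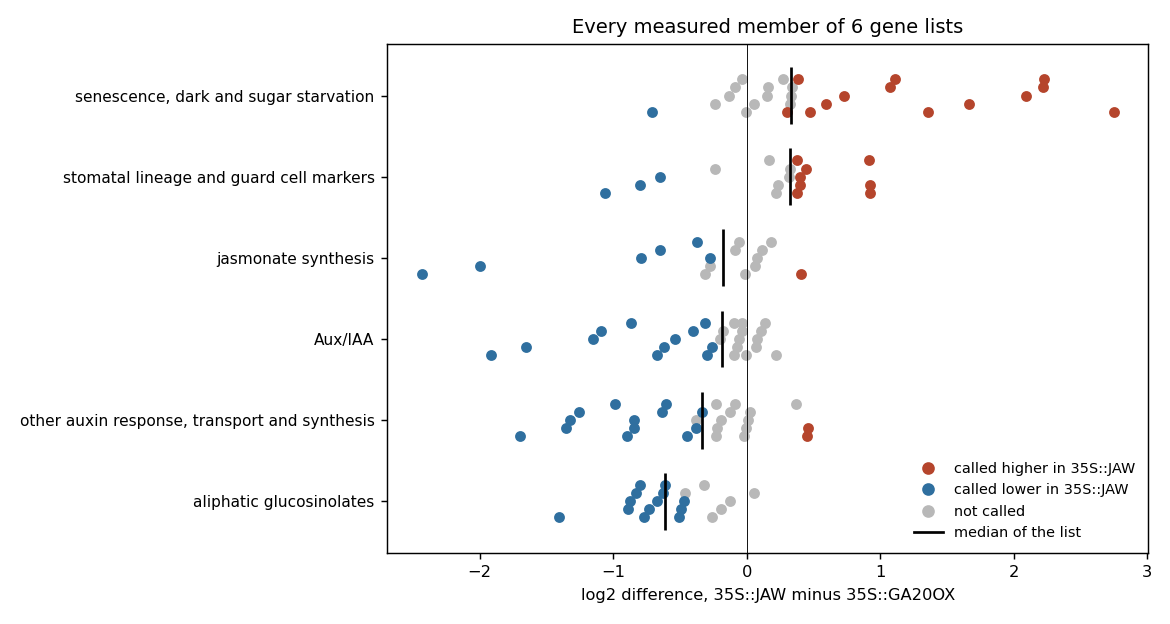
Log2 differences (35S::JAW minus 35S::GA20OX, horizontal axis) of every measured member of 6 gene lists; each point is a gene, coloured by whether it was called, and the black line is the median of the list. The aliphatic glucosinolate and auxin lists lie to the left with medians of -0.61, -0.33 and -0.19. To the right lie the senescence, darkness and sugar starvation list (median 0.33) and the stomatal list (median 0.32).

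The brassinosteroid genes were divided, with 4 higher and 4 lower of 12. PRE1 (AT5G39860), a helix-loop-helix protein without a DNA-binding region that promotes cell elongation downstream of brassinosteroid and gibberellin, had log2 values of 6.30, 5.38 and 6.12 in 35S::JAW, against 8.79, 8.40 and 8.63 in 35S::GA20OX. It was lower by 2.67 ± 0.21 (adjusted p = 0.000135). BEE3 (AT1G73830), a bHLH gene of the early brassinosteroid response, had 9.22, 9.05 and 9.07 in 35S::JAW, against 7.83, 7.86 and 7.86 in 35S::GA20OX. It was higher by 1.27 ± 0.07 (adjusted p = 1.99e-05), so that response genes of the same hormone stood at opposite sides. The synthesis gene ROT3 (AT4G36380) was higher by 0.79 ± 0.09 (adjusted p = 0.000749) and BAS1 (AT2G26710), which inactivates brassinosteroids, was lower by 0.75 ± 0.08 (adjusted p = 0.000586).

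Of 22 cytokinin genes 5 were higher and 2 lower, with a median of 0.01. The higher ones included the type-A response regulator genes ARR6 (AT5G62920, 1.0 ± 0.14, adjusted p = 0.00216) and ARR5 (AT3G48100, 0.93 ± 0.15, adjusted p = 0.00464), which the hormone induces and which damp its response. ARR16 (AT2G40670), of the same class, was lower by 1.02 ± 0.11 (adjusted p = 0.00063). CKX4 (AT4G29740), a cytokinin oxidase gene, had log2 values of 5.87, 5.62 and 5.96 in 35S::JAW, against 7.63, 7.31 and 7.23 in 35S::GA20OX. Its difference of -1.57 ± 0.12 (adjusted p = 0.000119) was the largest of the list in size. The count of higher members was 3 without 35S::JAW replicate 1 or 2 and without 35S::GA20OX replicate 2 or 3.

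Genes that organise the leaf and its growth differed in single members. Of 16 boundary, KNOX and meristem genes 1 was higher and 2 lower. AS2 (AT1G65620), which keeps KNOX genes off in leaves, was higher by 0.84 ± 0.09 (adjusted p = 0.000526). The KNOX genes KNAT1 (AT4G08150, -0.82 ± 0.17, adjusted p = 0.0149) and STM (AT1G62360, -0.49 ± 0.11, adjusted p = 0.0201) were lower and dim, with means under 6 in both lines. The call of KNAT1 was lost without 35S::GA20OX replicate 1 (adjusted p of 0.054), and that of STM without 35S::GA20OX replicate 2 or 3 (adjusted p up to 0.077). Of 11 GRF and GIF genes, which promote leaf cell proliferation, GRF3 (AT2G36400) was higher by 1.103 ± 0.15 (adjusted p = 0.00201). GRF2 (AT4G37740) was higher by 0.25 ± 0.07 (adjusted p = 0.0389), a call lost with any 1 array left out (adjusted p up to 0.12).

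The cell cycle lists held few called genes and small differences. Of 22 genes of S phase and DNA replication 3 were lower, with a median of -0.13: MCM5 (AT2G07690, -0.37 ± 0.09), PCNA1 (AT1G07370, -0.32 ± 0.07) and RPA70B (AT5G08020, -0.30 ± 0.08), with adjusted p between 0.0239 and 0.0395. The count was 0 without 35S::JAW replicate 1 or 3 or without 35S::GA20OX replicate 3, 1 without 35S::GA20OX replicate 1 or 2, and 4 without 35S::JAW replicate 2. Of 16 G2 and mitosis genes only CYCA2;3 was called (-0.30 ± 0.08, adjusted p = 0.0474), and the call was lost with any 1 array other than 35S::GA20OX replicate 1 left out. The median of the G2 and mitosis list was -0.11, against 0.01 over all loci. Though small, the differences were negative for 18 of 22 S phase and DNA replication genes and for 15 of 16 G2 and mitosis genes. This lean was not tested. None of 9 D-type cyclin genes was called, with differences between -0.33 and 0.22, and 1 had an unadjusted p under 0.05. Of 14 genes of cell cycle inhibitors and the endocycle SMR2 (AT1G08180, 0.70 ± 0.10, adjusted p = 0.00305) was higher and SMR1 (AT3G10525, -0.62 ± 0.10, adjusted p = 0.00405) lower. KRP4 was higher by 0.46 ± 0.12 (adjusted p = 0.0381), a call lost without 35S::JAW replicate 1 or 3 or without 35S::GA20OX replicate 2 or 3 (adjusted p up to 0.12).

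In both cell wall families most members did not pass, and called members stood on both sides. Of 20 expansin genes, whose proteins loosen walls, 5 were lower, 1 higher and 14 not called, with a median of -0.18. The called ones included EXPB1 (AT2G20750) lower by 0.41 ± 0.06 (adjusted p = 0.00427) and EXPA11 (AT1G20190) higher by 0.60 ± 0.10 (adjusted p = 0.00461). EXLB1 (-0.73 ± 0.15, adjusted p = 0.0146) lost its call without 35S::JAW replicate 1 or 35S::GA20OX replicate 3, and EXLA2 (-0.48 ± 0.10, adjusted p = 0.0177) without 35S::JAW replicate 1 or 35S::GA20OX replicate 1 or 2 (adjusted p up to 0.067). The count of lower expansins was 2 without 35S::JAW replicate 1 or 35S::GA20OX replicate 2 or 3, and 3 without 35S::JAW replicate 3 or 35S::GA20OX replicate 1. Of 22 xyloglucan endotransglucosylase genes, whose enzymes cut and rejoin wall xyloglucan, 5 were higher, 1 lower and 16 not called, with a median of 0.07. XTH7 (AT4G37800), among the brighter transcripts, had log2 values of 12.16, 12.12 and 12.07 in 35S::JAW, against 11.28, 11.24 and 10.92 in 35S::GA20OX, a difference of 0.97 ± 0.10 (adjusted p = 0.000473). XTH32 (AT2G36870) was higher by 0.81 ± 0.08 (adjusted p = 0.000331) and XTH17 (AT1G65310) lower by 0.91 ± 0.10 (adjusted p = 0.000568). The touch-induced gene XTH22 (AT5G57560) was higher by 1.27 ± 0.31 (adjusted p = 0.0303) but had 9.39, 7.98 and 8.37 in 35S::JAW, and its call was lost without 35S::JAW replicate 3 or any 1 35S::GA20OX array (adjusted p up to 0.1). Without 35S::JAW replicate 3 or 35S::GA20OX replicate 2 or 3 the count of higher XTH genes was 2, and without 35S::JAW replicate 1, or with an intensity trend and robust prior, it was 3.

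Of 26 measured genes of senescence, darkness and sugar starvation 13 were higher in 35S::JAW, 1 was lower and 12 did not pass, and the median was 0.33. Over all loci 5.7% were higher, but the list was chosen with earlier results of these data known. It also held SWEET sugar transporter and BT genes. SWEET1 (AT1G21460), a sugar transporter, had log2 values of 9.92, 10.15 and 10.09 in 35S::JAW, against 7.29, 7.30 and 7.34 in 35S::GA20OX, a difference of 2.75 ± 0.08 (adjusted p = 3.73e-07). ASN1 (AT3G47340), the dark-induced asparagine synthetase gene, had 9.22, 8.43 and 9.11 in 35S::JAW, against 7.17, 6.21 and 6.71 in 35S::GA20OX, a difference of 2.23 ± 0.26 (adjusted p = 0.000922). SEN1 (AT4G35770), induced in darkness and senescence, had 9.95, 9.37 and 9.73 in 35S::JAW, against 8.07, 6.88 and 7.45 in 35S::GA20OX, a difference of 2.22 ± 0.27 (adjusted p = 0.00112). Replicate 2 was the lowest of its group in both lines for ASN1 and SEN1, while SWEET1 varied little. BT5 (AT4G37610), a BTB-domain protein gene, was higher by 2.09 ± 0.34 (adjusted p = 0.00484), with 8.65, 7.09 and 7.75 in 35S::JAW and 6.02, 5.39 and 5.81 in 35S::GA20OX. SAG21 (1.67), DIN10 (1.35), BT2 (1.11), AKINBETA1 (1.07), NAP (0.73), DIN4 (0.38) and EXL2 (0.30) were higher too. The phloem-loading sucrose transporters SWEET11 (0.59) and SWEET12 (0.47) completed the higher members, and SWEET4 was lower by 0.71. With 1 array left out, 10 to 13 members were called higher, and NAP, BT2, EXL2 and SWEET4 each lost the call in 2 or more of the 6 such fits (adjusted p up to 0.159).

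Defence genes split by group. Of 21 salicylic acid and pathogenesis-related genes 2 were higher and 4 lower, yet they included the highest called locus of all and one of the lowest. AZI1 (AT4G12470), a lipid transfer-like protein of systemic immunity, had log2 values of 8.20, 8.94 and 9.67 in 35S::JAW, against 5.64, 5.89 and 5.76 in 35S::GA20OX, a difference of 3.172 ± 0.30 (adjusted p = 0.000299). PR5 (AT1G75040), a thaumatin-like protein, had 7.78, 7.87 and 7.92 in 35S::JAW, against 5.86, 5.76 and 5.74 in 35S::GA20OX, a difference of 2.07 ± 0.07 (adjusted p = 9.75e-07). The arrays of the lines did not overlap in either gene, and AZI1 varied more than PR5 within 35S::JAW. PCC1 (AT3G22231), a small pathogen-induced protein under clock control, had 7.49, 7.12 and 8.63 in 35S::JAW, against 11.09, 10.71 and 11.84 in 35S::GA20OX, a difference of -3.46 ± 0.39 (adjusted p = 0.000731). WRKY54 (AT2G40750) was lower by 1.02 ± 0.17 (adjusted p = 0.00618), and ACD6 (-0.94) and EDS5 (-0.43) were lower. The count of lower members was 2 without 35S::GA20OX replicate 2 and also with all 9 arrays estimating the spread, and ACD6 and EDS5 lost their calls in 2 and 5 of the 6 fits with 1 array left out (adjusted p up to 0.111). LURP1 (AT2G14560), named for its late induction by a downy mildew, was lower by 2.86 ± 0.38 (adjusted p = 0.00186).

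The aliphatic glucosinolate genes, which make methionine-derived defence compounds, were lower in 35S::JAW: 13 of 19 and none higher, where 5.76% of all loci were lower. The median was -0.61, and 18 of the 19 differences were negative. The called genes span the pathway. Side-chain elongation was represented by BCAT4 (-0.73), MAM1 (-0.51), the transporter gene BAT5 (-0.63), IPMI2 (-0.67) and IPMI1 (AT3G58990), an isopropylmalate isomerase gene with -0.89 ± 0.10 (adjusted p = 0.000586). Core synthesis was represented by CYP83A1 (-0.49), UGT74C1 (-0.47), SOT18 (-0.61) and SOT17 (-0.77), and side-chain modification by AOP2 (-0.80) and the flavin monooxygenases. FMO GS-OX2 (AT1G62540) had log2 values of 4.68, 4.88 and 4.49 in 35S::JAW, against 5.84, 6.03 and 6.39 in 35S::GA20OX, a difference of -1.41 ± 0.15 (adjusted p = 0.000495). FMO GS-OX3 (AT1G62560) differed by -0.87 ± 0.09 (adjusted p = 0.00063) and FMO GS-OX1 (AT1G65860) by -0.83 ± 0.10 (adjusted p = 0.000911). With 1 array left out 12 or 13 members were called lower, and UGT74C1 lost its call in 4 of the 6 such fits (adjusted p up to 0.0854). The wild-type mean was nearer to 35S::JAW for 7 of the 13 called genes and nearer to 35S::GA20OX for 6. ESP (AT1G54040), whose protein turns glucosinolate breakdown toward nitriles and which was not on the list, had 6.63, 6.74 and 6.95 in 35S::JAW, against 9.74, 9.73 and 9.51 in 35S::GA20OX, a difference of -2.89 ± 0.10 (adjusted p = 1.05e-06). Whether the transcripts of AOP2 and ESP give active proteins in Col-0 was not tested.

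Of 12 genes of indolic glucosinolates and camalexin, 2 were higher and 3 lower. MYB34 (AT5G60890), a regulator of constitutive indolic glucosinolate synthesis, was lower by 0.93 ± 0.09 (adjusted p = 0.00029), and UGT74B1 (-0.48 ± 0.08, adjusted p = 0.00492) and SUR1 (-0.39) of the shared core pathway were lower. MYB51 (AT1G18570), a related regulator that responds to stress, was higher by 0.89 ± 0.13 (adjusted p = 0.00314), and CYP81F2 (AT5G57220), which modifies indolic glucosinolates in defence, was higher by 1.23 ± 0.17 (adjusted p = 0.00263).

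Among 24 genes of flavonoids and anthocyanins, 6 were higher, 2 lower and 16 not called, with a median of -0.002. Higher members included TT4 (AT5G13930), chalcone synthase (0.68 ± 0.11, adjusted p = 0.0056), and TT7 (AT5G07990), the flavonoid 3'-hydroxylase gene (0.68 ± 0.12, adjusted p = 0.00677). MYBL2 (AT1G71030), an inhibitor of anthocyanin synthesis, was higher by 0.95 ± 0.12 (adjusted p = 0.0013). The remaining higher members are not named here. DFR (AT5G42800), the dihydroflavonol reductase gene of the anthocyanin branch, had log2 values of 5.92, 5.49 and 5.51 in 35S::JAW, against 6.50, 6.66 and 6.76 in 35S::GA20OX. It was lower by 1.0 ± 0.13 (adjusted p = 0.00143), and TT19, needed to move anthocyanins to the vacuole, was lower by 0.61. The wild-type values of DFR (7.54, 7.06 and 7.64) were above those of both lines. The lower members numbered 4 without 35S::JAW replicate 2, with array weights and with the replicate number as a block.

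**Figure D4:**
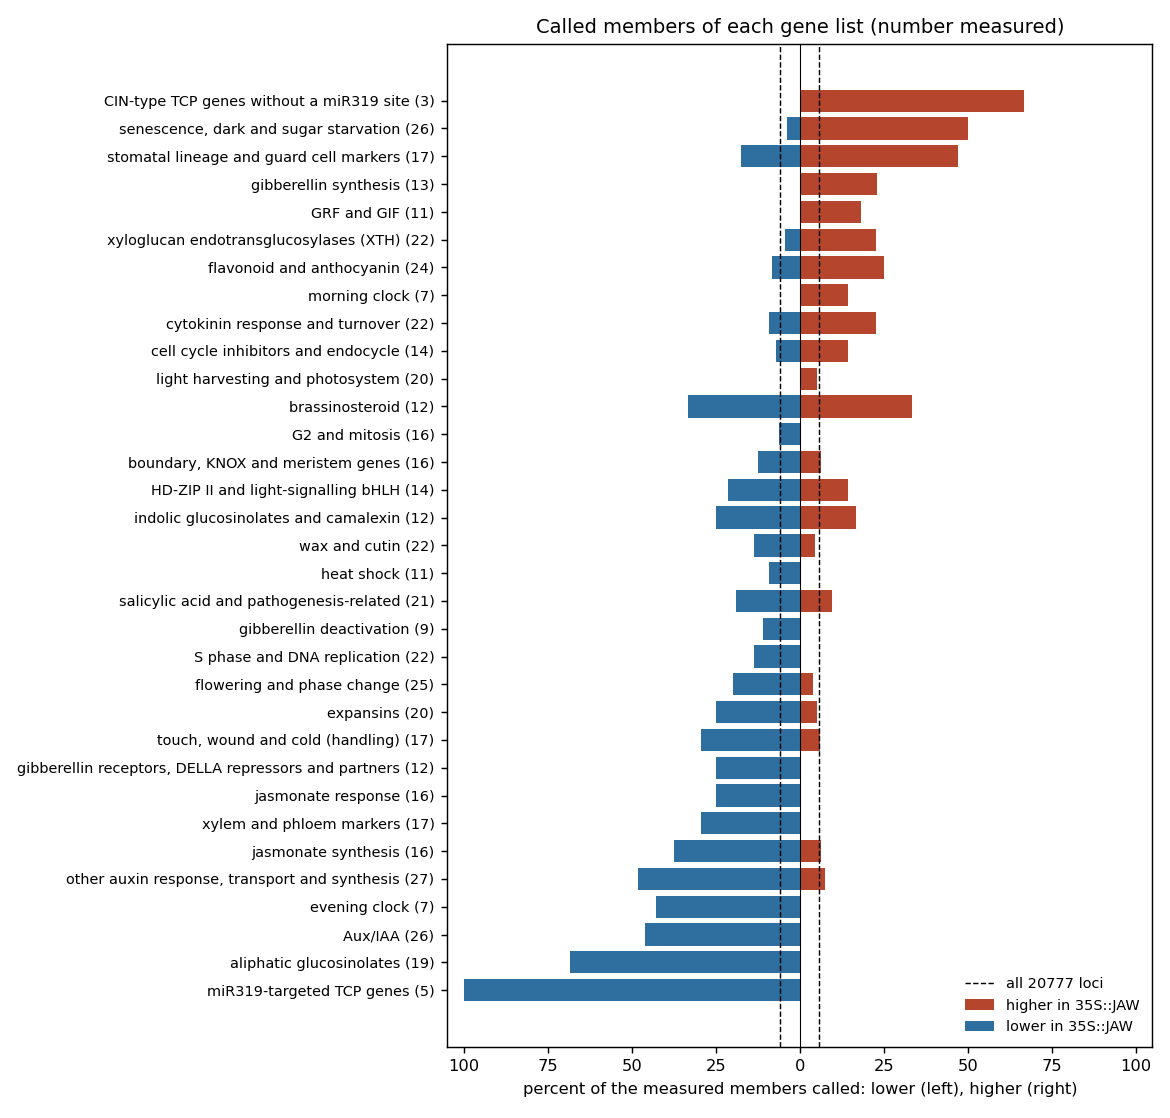
Share of the measured members of each gene list (number in brackets) that was called higher in 35S::JAW (bars to the right) or lower (bars to the left), on an axis in percent that starts at 0 in both directions; dashed lines mark the shares over all loci, 5.7% higher and 5.76% lower. Lists without a called member are not drawn. The miR319-targeted TCP genes (all 5) and the aliphatic glucosinolate genes (68.4%) have the largest shares lower. Among lists with more than 5 members, the largest shares higher are in senescence, darkness and sugar starvation (13 of 26) and stomatal genes (47.1%).

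The photosynthesis list held 1 called gene, and the clock lists 3 in the evening and 1 in the morning group. Of 20 light-harvesting and photosystem genes only LHCB4.3 (AT2G40100) was called, with log2 values of 8.40, 8.30 and 8.24 in 35S::JAW, against 7.28, 7.57 and 7.43 in 35S::GA20OX, a difference of 0.89 ± 0.09 (adjusted p = 0.000409). Its wild-type values of 8.40, 8.57 and 8.55 were near those of 35S::JAW. Of 7 evening clock genes 3 were lower (42.9%) and none higher, with a median of -0.31 and 6 negative differences, and the count was also 3 with any 1 array left out. The lower ones were ELF4 (AT2G40080, -1.22 ± 0.15, adjusted p = 0.0013), PRR3 (AT5G60100, -0.92 ± 0.17, adjusted p = 0.00869) and TOC1 (AT5G61380, -0.49 ± 0.09, adjusted p = 0.00753). Of 7 morning clock genes only LNK2 was called, higher by 0.36 ± 0.09 (adjusted p = 0.0412), and its call was lost with any 1 array other than 35S::JAW replicate 2 left out (adjusted p up to 0.14). The hour of harvest of each line is not given in the sources used here, and its part in these differences was not tested.

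Among genes that respond to touch, wounding and cold, those called lower in 35S::JAW were cold-regulated. Of 17 touch, wound and cold genes, chosen as signs of handling, 5 were lower and 1 higher, while the median of the list was 0.18. The higher one was XTH22, and the count of higher members was 0 without 35S::JAW replicate 3, without 35S::GA20OX replicate 2 or 3, and with an intensity trend and robust prior. With the replicate number as a block it was 4. The other 9 touch, wound and stress genes differed by 0.06 to 1.06, all positive, and did not pass. The 5 lower genes were 5 of the 7 cold genes on the list, a group singled out after its values were seen, and CBF1 (-0.11) and CBF2 (0.11) did not pass. COR15A (AT2G42540), which protects chloroplast membranes in frost, had log2 values of 9.25, 10.12 and 9.59 in 35S::JAW, against 11.59, 11.78 and 12.29 in 35S::GA20OX, a difference of -2.23 ± 0.23 (adjusted p = 0.000499). COR15B (AT2G42530) differed by -1.32 ± 0.15 (adjusted p = 0.000797), COR78 (AT5G52310) by -1.29 ± 0.18 (adjusted p = 0.00261) and COR47 by -0.47, and CBF3, the transcription factor that activates them, by -1.12. The arrays of the lines did not overlap in any of these genes, and COR47 lost its call without 35S::JAW replicate 1 (adjusted p of 0.0522). Of 11 heat shock genes only HSP101 was called (-0.34 ± 0.09, adjusted p = 0.0499), which was lost with any 1 array other than 35S::JAW replicate 1 left out (adjusted p up to 0.15) and in 4 of the fits to all arrays.

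Markers of the stomatal lineage were called in both directions, more of them higher in 35S::JAW, and the called markers of vascular tissue were lower. Of 17 stomatal lineage and guard cell genes 8 were higher and 3 lower, with a median of 0.32. TMM (AT1G80080), a receptor that patterns stomata, had log2 values of 7.60, 7.54 and 7.51 in 35S::JAW, against 6.68, 6.44 and 6.76 in 35S::GA20OX, a difference of 0.92 ± 0.09 (adjusted p = 0.000375). SPCH (AT5G53210), which starts the lineage, had 7.61, 6.96 and 7.42 in 35S::JAW, against 6.44, 6.30 and 6.50 in 35S::GA20OX, a difference of 0.92 ± 0.15 (adjusted p = 0.00524). The guard cell gene MYB60 (AT1G08810) was higher by 0.92 ± 0.13 (adjusted p = 0.00307). HT1 (0.44), EPF2 (0.40), SDD1 (0.40), FAMA (0.37) and EPF1 (0.37) were higher by less. SCRM2 (AT1G12860), a partner of SPCH, was lower, with 8.00, 8.09 and 8.15 in 35S::JAW, against 9.15, 9.19 and 9.08 in 35S::GA20OX, a difference of -1.06 ± 0.07 (adjusted p = 5.38e-05), the largest of the list in size. EPFL9, a signal that promotes stomata, was lower by 0.80 and the potassium channel gene KAT1 by 0.65. With 1 array left out, 5 to 7 genes were called higher, with 5 without 35S::JAW replicate 3 or 35S::GA20OX replicate 2. The calls of SDD1 and EPF1 were each lost in 5 of the 6 fits (adjusted p up to 0.152), that of EPF2 without 35S::JAW replicate 3 or 35S::GA20OX replicate 2, that of FAMA without 35S::JAW replicate 1 and that of KAT1 without 35S::GA20OX replicate 1 (adjusted p up to 0.0569).

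The summed log2 level of the 6 defining stomatal markers was 41.3 to 42.1 in 35S::JAW, against 38.6 to 39.4 in 35S::GA20OX. Of these 6 markers 4 were higher and 1 lower, and SCRM2 and EPFL9, both lower, are not among them. Of 17 xylem and phloem genes 5 were lower and none higher, with a median of -0.28, and 16 of the differences were negative. XCP1 (AT4G35350, -0.72 ± 0.12, adjusted p = 0.0051) and XCP2 (AT1G20850, -0.60 ± 0.10, adjusted p = 0.00679), proteases of maturing xylem, were lower on every array. IRX5 (-0.76 ± 0.19, adjusted p = 0.0332) lost its call without 35S::JAW replicate 2 or 3 or 35S::GA20OX replicate 2 or 3, and LAC4 (-0.40 ± 0.10, adjusted p = 0.0395) with any 1 array other than 35S::GA20OX replicate 2 left out (adjusted p up to 0.13). The count of lower members was 2 without 35S::JAW replicate 2, and 3 without 35S::JAW replicate 3, 35S::GA20OX replicate 1 or 35S::GA20OX replicate 3. It was 8 with all 9 arrays estimating the spread. The summed level of the 6 defining xylem and phloem markers was 43.3 to 45.1 in 35S::JAW, against 46.1 to 46.96 in 35S::GA20OX. This sum joins unlike tissues. Its phloem markers SUC2 (-0.08), APL (-0.26) and SEOR1 (-0.17) were not called. Of its xylem markers, XCP1 and LAC4 were called and IRX3 (-0.75, adjusted p = 0.114) was not. The part of the mix of cell types in the other differences was not tested. None of 7 trichome markers was called (1 at an unadjusted p under 0.05), and their median was 0.01.

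Of 25 flowering and phase change genes 1 was higher and 5 lower. TEM2 (AT1G68840), a floral repressor, was higher by 0.93 ± 0.18 (adjusted p = 0.0132), a call lost without 35S::GA20OX replicate 2 or 3 (adjusted p up to 0.058). SOC1 (AT2G45660), a floral promoter, was lower by 0.66 ± 0.09 (adjusted p = 0.00244) and the repressor gene SNZ (AT2G39250) by 0.74 ± 0.12 (adjusted p = 0.00562). SPL3 (AT2G33810) was lower by 0.54 ± 0.11 (adjusted p = 0.016), which was lost without 35S::JAW replicate 3 (adjusted p of 0.051). The count of lower members was 3 without 35S::JAW replicate 3 or 35S::GA20OX replicate 2 or 3. Of 22 wax and cutin genes 3 were lower and 1 higher: CER1 (AT1G02205), of wax alkane synthesis, by -0.95 ± 0.08 (adjusted p = 0.000149), KCS1 (AT1G01120) by -0.76 ± 0.16 (adjusted p = 0.0174), CER10 by -0.33 ± 0.08 (adjusted p = 0.0295) and LACS1 (AT2G47240) by 0.55 ± 0.06 (adjusted p = 0.0008). KCS1 lost its call without 35S::GA20OX replicate 1 or 2 and CER10 with any 1 array other than 35S::JAW replicate 3 left out (adjusted p up to 0.093). The count of lower wax and cutin genes was 1 without 35S::GA20OX replicate 1 or 2.

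The loci with the largest differences were in good part outside these groups. ELI3-1 (AT4G37980), of the cinnamyl alcohol dehydrogenase family, had log2 values of 5.995, 5.92 and 6.05 in 35S::JAW, against 10.68, 10.60 and 10.64 in 35S::GA20OX, a 25.1-fold difference (-4.65 ± 0.07, adjusted p = 3.02e-09). Next among the 15 lowest came AT1G31680 (-3.30 ± 0.08), its neighbour AT1G31690 (-3.11 ± 0.14), AT3G16670 (-3.10 ± 0.24), AT1G51090 (-3.02 ± 0.22) and AT4G17470 (-2.72 ± 0.13), with adjusted p between 1.16e-07 and 0.000109. APD7 (AT5G02760), a protein phosphatase of the PP2C class, had 7.26, 7.36 and 7.43 in 35S::JAW, against 10.13, 10.05 and 9.86 in 35S::GA20OX (-2.66 ± 0.09, adjusted p = 9.75e-07). The arrays of the lines were separated by more than 2 on the log2 scale in ELI3-1 and APD7. Among the 15 highest, AT3G16530 had 10.46, 10.53 and 10.17 in 35S::JAW, against 8.00, 7.73 and 7.51 in 35S::GA20OX (2.64 ± 0.14). AT2G05540 (2.43 ± 0.15), AT5G01740 (2.25 ± 0.09), AT3G60290 (2.25 ± 0.08), AT4G21870 (2.11 ± 0.08), AT3G44970 (2.02 ± 0.15) and AT4G27300 (1.89 ± 0.07) were higher with adjusted p between 1.1e-06 and 9.05e-05. MEE3 (AT2G21650), a RADIALIS-like SANT/MYB gene, was higher by 2.30 ± 0.19 (adjusted p = 0.000175), and AT5G28630 by 1.85 ± 0.33 with 7.88, 6.28 and 7.17 in 35S::JAW (adjusted p = 0.00757).

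Several of the brightest transcripts also differed by at least 2-fold. The lipid transfer protein gene LTP5 (AT3G51600) was higher by 1.18 ± 0.07, the DnaJ-domain protein gene J11 (AT4G36040) by 1.104 ± 0.09 and AT5G22580 by 1.26 ± 0.10, with adjusted p between 3.9e-05 and 0.000149. RCI2A (AT3G05880), a small membrane protein induced by cold, was lower, with 11.49, 11.74 and 11.67 in 35S::JAW, against 12.67, 12.71 and 12.85 in 35S::GA20OX, a difference of -1.11 ± 0.09 (adjusted p = 0.000118).

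Wild-type arrays, which took no part in the fit, show which line stood nearer to wild type at each locus. Of the 2381 called loci the wild-type mean was nearer to 35S::GA20OX at 1877, or 78.8%, against 58.3% of all 20777 loci. The share was 80.2% of the higher and 77.5% of the lower loci, and 95.0% (210 of 221) of the called loci that differed by at least 2-fold. On a scale where 1 is the 35S::JAW mean and 0 the 35S::GA20OX mean, the median place of wild type was 0.26 over the called loci and 0.15 over those of at least 2-fold. These are descriptions with no test, since the difference between the lines and the place of wild type share the lines' arrays. Wild type was nearer to 35S::GA20OX for all 15 called genes of the second auxin list. It was also nearer to 35S::GA20OX for 13 of the 14 called genes of the senescence, darkness and sugar starvation list, SWEET and BT genes included. Other lists were divided: it was nearer to 35S::GA20OX for 8 of 12 called Aux/IAA genes and 7 of 11 stomatal genes. The same held for 6 of 13 aliphatic glucosinolate genes and 2 of 6 expansin genes.

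**Figure D5:**
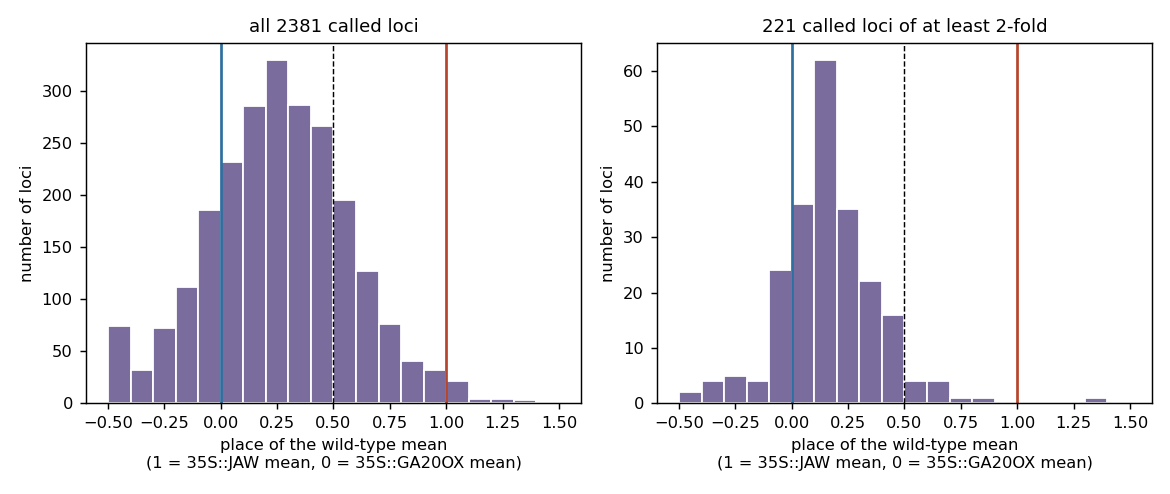
Number of called loci (vertical axis) by the place of the wild-type mean (horizontal axis, where 1, the red line, is the 35S::JAW mean and 0, the blue line, is the 35S::GA20OX mean; the dashed line is midway). The left panel holds all 2381 called loci and the right panel the 221 of at least 2-fold, with loci past either end drawn in the end bars; the medians are 0.26 and 0.15, nearer to 35S::GA20OX.

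Loci in which wild type stood nearer to 35S::JAW were fewer, 504 of the 2381 called ones. Beside GA20OX1 they included AT4G17470, with wild-type values of 6.22, 6.06 and 6.48, and AT1G52000, which had 5.98, 5.85 and 5.99 in 35S::JAW, against 7.20, 7.37 and 7.31 in 35S::GA20OX (-1.35 ± 0.08, adjusted p = 1.99e-05). FMO GS-OX2 and AT2G34810 (-1.31 ± 0.12, adjusted p = 0.000299) belonged to the same class. In HFR1, LHCB4.3, QQS, DR4 and TT4 the wild-type mean lay past that of 35S::JAW. QQS (AT3G30720) was higher in 35S::JAW than in 35S::GA20OX by 0.81 ± 0.16 (adjusted p = 0.0123), which was lost without 35S::GA20OX replicate 2 (adjusted p of 0.054), and DR4 (AT1G73330) was lower by 0.68 ± 0.09 (adjusted p = 0.00201). On the other side, the wild-type mean lay past that of 35S::GA20OX in TCP2, TCP3, ACX1, AT3G16670 and CRK22. These places go by means alone, without regard to the spread of the arrays. CRK22 (AT4G23300), a receptor-like kinase gene, had 5.79, 5.28 and 5.80 in 35S::JAW, against 8.32, 8.00 and 8.17 in 35S::GA20OX (-2.54 ± 0.14, adjusted p = 2.08e-05). Its wild-type values of 8.23, 8.13 and 8.27 lay within the range of the 35S::GA20OX arrays.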

How the data were processed

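The deposited values are log2 expression values per locus, for which the submitters' processing notes name RMA. This method subtracts background, makes the arrays' distributions alike and summarises probes, so it compresses changes of dim loci. Its version and the genome build are not given in the sources. Names came from RefSeq, which held 20508 of the 20777 loci. The 3 35S::JAW and 3 35S::GA20OX arrays, labelled as biological replicates, were fitted in R 4.3.3 with limma 3.58.1 (lmFit and eBayes, 4 residual and 4.76 prior degrees of freedom), with two-sided tests, p-values adjusted over all loci by Benjamini-Hochberg and a threshold of 0.05. No dim locus was left out. In a simulation over 20777 loci, with independent normal noise and few changed loci, 89% of changes of 0.5 were recovered. It gave 195 calls, against 2381 in the data, so this share is not the sensitivity of the real comparison.

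The 38 gene lists (593 measured loci) and the compared genotypes were chosen with earlier results of these data known. Named loci were GA20OX1, the TCP targets, the 15 highest and 15 lowest, up to 4 called per list, up to 5 for each place of wild type and the 5 brightest of at least 2-fold. One of these loci is not reported here. Further members are named to account for a list's count. Alternatives were array scaling, a filter, priors, weights, a block, thresholds and leaving out arrays. Families and neighbouring loci in the closing section were chosen after seeing the data. The precision is limited by the number of arrays, and the median SE was 0.0825.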

Additional observations from a re-analysis of the deposited data

How the results depend on the processing

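Of 137 loci named by the rule none changed direction in any setting run, and 112 of 136 called named loci kept their call with any 1 array left out. With 1 array left out the loci called higher numbered 670 to 975 and lower 741 to 1024, list members 45 to 63 higher and 90 to 107 lower, and the share of called loci with wild type nearer to 35S::GA20OX was 80.9% to 85.1%. Fewer samples were fitted there. At an adjusted p of 0.01, 526 loci were higher and 544 lower, with 42 list members higher, and wild type was nearer to 35S::GA20OX at 85.9% of them. With at least 2-fold required, 101 were higher and 120 lower, with 14 and 32 list members and a share of 95.0%. These thresholds call fewer loci by construction. The share was also 76.9% with all 9 arrays estimating the spread, 76.3% without the dimmest 40% of loci and 75.1% with a robust prior on an intensity trend, and the cause was not tested. The split of higher and lower calls was 1300 and 1043 after centring each array on its median. The replicate number as a block gave 1255 higher and 1251 lower loci, 70 and 129 list members and a share of 79.1%. Deviations of same-numbered arrays correlated with r of 0.153, 0.251 and 0.048, against -0.219 to 0.106 for arrays of different numbers. The main fit did not take the numbers as pairs, and these values do not settle whether they are. 5 of the 6 arrays correlated best with their own number, as a hint from the data only. The call of 10 named loci was lost in at least 1 fit to all arrays, among them BT5 (adjusted p = 0.058), AT5G28630 (adjusted p = 0.0683) and XTH22 (adjusted p = 0.163) with the trend and robust prior. With the block, 3 cell cycle inhibitors, 8 xylem and phloem genes and 4 flavonoid genes were lower (1, 5 and 2 without it), and 4 touch, wound and cold genes were higher (1 without it). With 3 arrays a line and a median SE of 0.0825, smaller differences could be missed.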

Other observations

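Groups of related loci outside the lists were picked after their values had been seen, so their counts describe these arrays and carry no test of the group. Families were gathered by gene symbol, so members under other symbols are not counted. Over all loci 5.7% were higher and 5.76% lower. Of the ABA receptor genes, those found under the symbols PYL1 to PYL7 had 4 of 7 members higher in 35S::JAW and none lower. The higher ones were PYL5 (AT5G05440) by 1.80 ± 0.11 (SE), PYL6 (AT2G40330) by 1.72 ± 0.13, PYL4 (AT2G38310) by 1.47 ± 0.10 and PYL1 by 0.53 ± 0.07, with limma adjusted p between 3.9e-05 and 0.00189. Only 3 genes of the group VII ethylene response factors, known for roles under low oxygen, were looked up. These were EBP (AT3G16770, 1.54 ± 0.07), RAP2.2 (0.76 ± 0.07) and RAP2.12 (0.48 ± 0.06), each higher, and they do not stand for the whole group. The autophagy genes found under ATG symbols had 4 of 15 members higher, led by ATG8E with 0.74 ± 0.14, and none lower.

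The chaperonin genes had 6 of 8 members lower in 35S::JAW and none higher, led by Cpn60beta2 with -0.56 ± 0.08. Of 4 NGATHA genes 2 were lower, NGA2 (-0.96 ± 0.13) and NGA1 (-0.83 ± 0.08), regulators of leaf margin growth, and of 4 class II KNOX genes 2 were lower, KNAT3 (-0.99 ± 0.07) and KNAT4 (-0.33 ± 0.08). Of 8 galactinol synthase genes 2 were lower, GolS3 (-2.08 ± 0.16) and GolS2 (-1.69 ± 0.22), and the median was -0.01. Of 73 chloroplast-encoded loci 3 were lower and none higher, and of 31 mitochondrion-encoded loci 1 was lower.

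Called loci also lay side by side: 17 runs of at least 3 neighbouring measured loci were called in 1 direction, 8 higher and 9 lower. How many such runs would arise without any clustering was not worked out, so the count does not show clustering. Some runs held small differences only, such as the 4 loci from GRP2 (-0.29) to AT4G38710 (-0.37). Other runs include SAUR63 to SAUR65, the glucosinolate oxidase genes FMO GS-OX2 to FMO GS-OX4, and RCI2A with RCI2B, which are gene copies alike in sequence whose probes were not checked for sharing.

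EARLI1 (AT4G12480), a relative and neighbour of AZI1, had the largest difference without a call: its log2 values were 3.88, 4.83 and 7.97 in 35S::JAW, against 3.43, 3.57 and 3.503 in 35S::GA20OX, a difference of 2.06 ± 0.84 (SE, adjusted p = 0.171).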
